A study of Homo sapiens with 6 samples.

Results

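The genes examined were 10 members of the iron regulatory protein (IRP) system and of cellular iron transport: TFRC, TFR2, ACO1, IREB2, FBXL5, SLC11A2, SLC40A1, STEAP3, CDC42BPA and SLC39A14. They were chosen by function, with earlier results of these data known. GENCODE v44 assigns 147 transcripts to these 10 genes, of 251612 annotated transcripts and 62252 genes in the deposited quantification. Poly-A RNA from K562 cells, a human chronic myelogenous leukemia line with erythroid features, was sequenced after short hairpin knockdown of PCBP1, the poly C-binding protein that also carries iron to its client proteins. Both groups received lentivirus made from the pLKO.1 plasmid with 8 µg/ml polybrene overnight and were then held in 3 µg/ml puromycin for 4 days. The control hairpin targeted luciferase (shCtrl, 3 libraries) and the other targeted PCBP1 (shPCBP1, 3 libraries), so the control cells also carry a hairpin and went through selection. The labels do not say whether the replicates were separate transductions, and p-values therefore measure the spread between these samples, which may be technical. In bulk RNA of this kind, fewer cells of a type and less RNA per cell cannot be told apart.

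Cells take up iron when transferrin binds transferrin receptor 1 (TFRC) and the pair is carried into endosomes, where a STEAP reductase frees ferrous iron and divalent metal transporter 1 (SLC11A2) moves it to the cytosol. Iron leaves through ferroportin (SLC40A1). IRP1 (ACO1) and IRP2 (IREB2) bind iron-responsive elements (IREs), short RNA hairpins, when iron is scarce: an IRE in the 3′ UTR protects an mRNA from decay, and an IRE near the cap blocks its translation. With iron, IRP1 takes up an iron-sulfur cluster and becomes cytosolic aconitase, and IRP2 is degraded through the ubiquitin ligase subunit FBXL5. Erythroid cells depend on this system because most of their iron goes into heme.

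The hairpins are shown first, because IRPs bind mRNAs through elements of this kind. Annotated transcripts were searched on the sense strand for a C, 5 bases, the loop CAGTGN and 5 bases able to pair with the first 5, with at most 1 extra base in the 3′ arm. The 3′ UTR of TFRC held 4 matches, more than that of any other canonical transcript, and it was the single gene among 19968 with 3 or more. SLC11A2 held 1 match, 43 bases past the end of its coding sequence, and SLC40A1 held 1 match in the 5′ UTR, 110 bases from the transcript start. A search with the loop CAGAGN, added after the data were seen, gave a further hairpin in TFRC, upstream of the other 4. The loop is in capitals below, and coordinates are GRCh38 on the minus strand.
TFRC CAGAGN match, chr3:196051029-196051057: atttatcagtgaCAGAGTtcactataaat
TFRC match A, chr3:196050979-196051007: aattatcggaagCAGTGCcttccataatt
TFRC match B, chr3:196050575-196050603: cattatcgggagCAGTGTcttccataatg
TFRC match C, chr3:196050510-196050538: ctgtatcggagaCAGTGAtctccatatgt
TFRC match D, chr3:196050463-196050491: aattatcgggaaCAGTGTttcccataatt
SLC11A2 match, chr12:50988268-50988297: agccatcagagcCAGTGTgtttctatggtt
SLC40A1 match, chr2:189580661-189580689: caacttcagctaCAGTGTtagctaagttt

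The TFRC matches lay 900, 950, 1354, 1419 and 1466 bases past the end of the coding sequence, all within the last exon shared by 26 of its 38 transcripts. Under the same rule 1.58% of canonical 3′ UTRs and 0.22% of 5′ UTRs held a CAGTGN match, and 1.52% of 3′ UTRs held a CAGAGN match. IREB2 also had a 3′ UTR match with 1 extra base, and 1 transcript of SLC39A14 without a coding sequence had a match. CDC42BPA and STEAP3 had CAGAGN matches in the 3′ UTR and none with CAGTGN. TFR2, ACO1 and FBXL5 held none with either loop. A match describes letters that could fold and does not show that the site is bound.

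The libraries held 67066747 to 140522444 estimated fragments, with the shPCBP1 libraries (67066747 to 85121124) on the shallow side of the shCtrl libraries (83033656 to 140522444). PCBP1 itself was at 40566, 38409 and 37799 normalized counts with shCtrl and 6625, 7277 and 7221 with shPCBP1, which left 18.1% of the control level. All 9 erythroid markers read here, among them GATA1, KLF1 and the embryonic and fetal globins, were above 1 TPM on average, with a summed level of 28800 to 34600 TPM in shCtrl and 33000 to 34400 TPM in shPCBP1. Of the megakaryocyte markers ITGA2B alone exceeded 1 TPM, and it was lower with shPCBP1, the list summing to 13.1 to 17.1 TPM in shCtrl and 3.31 to 5.18 TPM in shPCBP1. EPCAM, COL1A1 and COL1A2 were also lower, in an epithelial and stromal list that summed to 44.6 to 45.2 TPM and 32.4 to 41 TPM. The myeloid markers summed to at most 0.525 TPM, and CD3E and MS4A1, which mark T and B lymphocytes, were below 0.1 TPM in a lymphoid list that summed to 2.64 to 3.28 TPM and 1.41 to 1.84 TPM. The part of these other markers in the values of the 10 genes was not tested.

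Of the 10 genes, 5 rose with shPCBP1 and 1 fell (DESeq2, adjusted p under 0.05). Across all 17095 genes with an adjusted p, 17.7% were higher and 13.5% were lower by this measure. TFRC, SLC39A14, CDC42BPA, STEAP3 and ACO1 were higher, TFR2 was lower, and IREB2, FBXL5, SLC11A2 and SLC40A1 did not pass. None of the 10 was among the genes that also changed more than 1 log2 unit with a mean count over 10, a group that took in 1.37% of those tested. In every member the normalized counts of the 2 groups did not overlap, with 7 higher and 3 lower in shPCBP1. The same was true of 44.2% of all genes tested, 23.7% being higher and 20.5% lower. The median log2 fold change of the 10 was 0.12, against 0.00 for all genes tested.

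**Figure D1:**
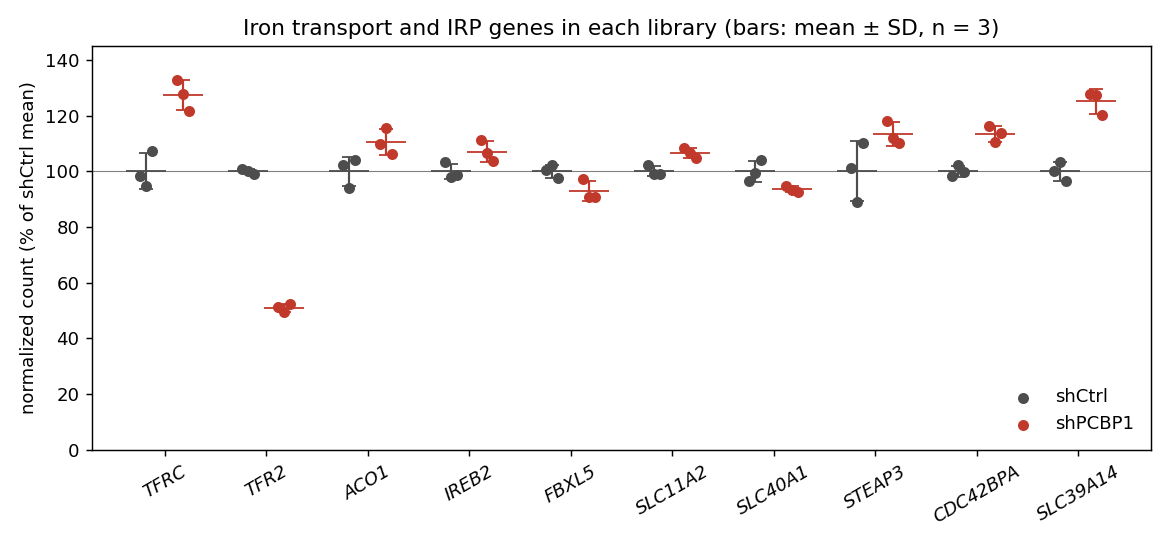
Normalized counts of the 10 genes in each of the 6 libraries, as a percentage of the shCtrl mean of that gene (y axis), with the mean and SD of 3 libraries per group. TFR2 sits near 50.9% of control in all 3 shPCBP1 libraries, and TFRC and SLC39A14 sit above all shCtrl libraries.

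Transferrin receptor 2 (TFR2, ENSG00000106327, chr7:100620416-100642779) fell the most of the 10. TFR2 is a second receptor for iron-loaded transferrin, made mainly in liver and erythroid cells, where it reports iron supply rather than carrying bulk iron and associates with the erythropoietin receptor. It stood at 14521, 14436 and 14289 normalized counts with shCtrl and at 7388, 7101 and 7523 with shPCBP1. The 3 knockdown libraries lay close together and far below the lowest control. The mean went from 14415 ± 118 to 7337 ± 216 (SD, n = 3), which on the log2 scale was -0.97 with an SE of 0.0399 (DESeq2 adjusted p 6.9e-128). By p-value TFR2 ranked 2 among all genes, directly after PCBP1, although 177 genes past the threshold fell further. EPOR, the erythropoietin receptor, fell from 2746 ± 176 to 2288 ± 72.8 normalized counts (SD, n = 3, log2 fold change -0.26, SE 0.0692, DESeq2 adjusted p 0.00091). Of the other erythroid markers TAL1, LMO2 and HBG1 were higher and the remaining 5 did not pass, and the part that a shift in the erythroid program has in the TFR2 value was not tested.

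The protein-coding transcripts of TFR2 stood at a smaller fraction of control than the gene as a whole. GENCODE lists 13 TFR2 transcripts, of which 3 are protein-coding and 9 are labelled retained intron. The coding transcripts summed to 41.4, 43.9 and 46.1 TPM with shCtrl and to 17.9, 16.1 and 19.3 TPM with shPCBP1, a ratio of means of 0.406. The retained-intron transcripts went from 48.4, 50.2 and 40.5 TPM to 31.9, 31.4 and 31.6 TPM, a ratio of 0.682. Both classes were lower in all 3 knockdown libraries, with no overlap. The coding share of TFR2 was thus 48.4% ± 4.13 with shCtrl and 35.6% ± 1.98 with shPCBP1 (SD, n = 3, exact two-sided permutation p 0.1, the smallest that 3 against 3 can give). Over all 29 share comparisons made here the Benjamini-Hochberg adjusted value of such a p, from the same exact tests, was 0.322. These shares are of TPM, which weighs short transcripts more than counts do. The retained-intron forms TFR2-203 (692 bases) and TFR2-211 (610 bases) held 14.1% and 11.8% of TFR2 TPM but 3.11% and 2.11% of its estimated counts. The coding forms TFR2-201 and TFR2-205 held 22.6% and 20.5% of the TPM and 34.7% and 33.2% of the counts. The part of Salmon's division of reads in the shares was not tested.

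Among single transcripts TFR2-201, the canonical form, and TFR2-205, which starts from an exon further upstream, both fell. TFR2-201 was at 21, 25.5 and 26.3 TPM in shCtrl and at 8.55, 5.28 and 8.67 TPM in shPCBP1 (DESeq2 log2 fold change -1.66, SE 0.203, adjusted p 7.09e-14, edgeR adjusted p 0.0415). TFR2-205 was at 20.1, 18.1 and 18.2 TPM in shCtrl and at 9.19, 10.9 and 10.2 TPM in shPCBP1 (DESeq2 log2 fold change -0.86, SE 0.0825, adjusted p 5.43e-23, edgeR adjusted p 0.019). Neither transcript overlapped between the groups. The retained-intron forms TFR2-203, TFR2-211 and TFR2-212 were lower by DESeq2 and did not pass edgeR, at adjusted p 0.426, 0.281 and 0.381. The first exon used by TFR2-201 took 34.8% ± 4.04 of TFR2 TPM in shCtrl and 25.3% ± 2.93 in shPCBP1, a shift with an unadjusted p of 0.0129 in limma and an adjusted p of 0.254. Its last exon took 64.8% ± 1.72 in shCtrl and 57.2% ± 0.238 in shPCBP1 (limma unadjusted p 0.00789, adjusted p 0.232). That of TFR2-203 took 12.9% ± 0.506 and 16.1% ± 2.13 (limma adjusted p 0.409).

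**Figure D2:**
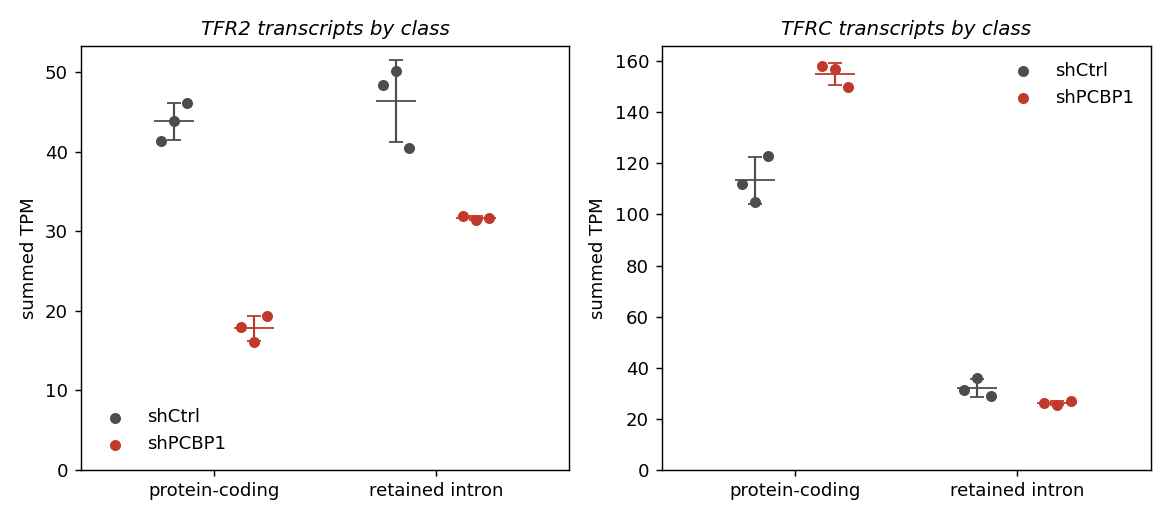
Summed TPM of the protein-coding and the retained-intron transcripts of TFR2 (left) and TFRC (right) in each library, with the mean and SD of 3 libraries per group. Coding TFR2 drops from 43.8 to 17.8 TPM on average, while coding TFRC goes from 113 to 155 TPM and its retained-intron class from 32 to 26.2 TPM.

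TFRC (ENSG00000072274, chr3:196012511-196082153), the main iron importer of dividing cells, rose. Its 6 values were 53254, 51297 and 58182 normalized counts with shCtrl and 71951, 69361 and 65962 with shPCBP1. The lowest knockdown library exceeded the highest control, and the fold was 1.27. On the length-normalized scale TFRC was the most abundant of the 10, at 150 TPM ± 5.46 in shCtrl and 186 TPM ± 4.6 in shPCBP1 (SD, n = 3).

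Within TFRC the higher level was found in the protein-coding transcripts. Their sum was 112, 105 and 123 TPM with shCtrl and 158, 157 and 150 TPM with shPCBP1, a ratio of means of 1.36. The 18 retained-intron transcripts summed to 31.4, 36 and 28.7 TPM with shCtrl and 26.2, 25.4 and 26.9 TPM with shPCBP1, a ratio of 0.818. The coding class was higher and the retained-intron class lower in all 3 knockdown libraries, and the coding share was 75.5% ± 3.44 in shCtrl and 83.1% ± 0.402 in shPCBP1 (SD, n = 3, exact permutation p 0.1). TFRC-201, the canonical transcript, was at 103, 97.5 and 116 TPM with shCtrl and 146, 144 and 136 TPM with shPCBP1. It rose by DESeq2 (log2 fold change 0.42, SE 0.0864, adjusted p 5.39e-05) but had an edgeR adjusted p of 0.158.

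TFRC-229, a retained-intron transcript of 5428 bases, was quantified at 2.39, 2.45 and 2.92 TPM with shCtrl and was listed at 0 in all 3 shPCBP1 libraries (DESeq2 adjusted p 3.4e-22, edgeR adjusted p 0.00686). It made up 0.769% of TFRC TPM. Salmon divides reads among the overlapping transcripts of a gene by estimation, and the part of that step in the values of 0 was not tested. TFRC transcripts with the IRE-bearing last exon took 90.5%, 89.9% and 92.4% of the gene's TPM with shCtrl and 93.8%, 93.6% and 93.2% with shPCBP1. That last exon had an unadjusted p of 0.00791 and an adjusted p of 0.232 in limma. Among first exons, the annotated 5′ start of TFRC took 84.8% ± 1.67 in shCtrl and 90.9% ± 1.09 in shPCBP1 (limma adjusted p 0.112), and an internal start led by the retained-intron transcript TFRC-214 took 7.17% ± 0.763 and 3.71% ± 0.651 (limma adjusted p 0.0909).

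SLC39A14 (ENSG00000104635, chromosome 8) encodes ZIP14, a transporter that takes up iron not bound to transferrin. It stood at 8270, 8548 and 7977 normalized counts with shCtrl and at 10559, 10541 and 9919 with shPCBP1. All knockdown libraries were above all controls, and the log2 fold change of 0.32 (SE 0.0452, adjusted p 2.65e-11 by DESeq2) was close in size to that of TFRC. SLC39A14-204 held 89.9% of its TPM, at 21.6, 23.1 and 21 TPM in shCtrl and 27.3, 27.7 and 26.4 TPM in shPCBP1 (DESeq2 adjusted p 2.64e-13, edgeR adjusted p 0.0542). SLC39A14 has a pair of mutually exclusive exons of equal length. SLC39A14-203, which uses the other exon of the pair, made up 1.43% ± 0.562 of the 2 forms with shCtrl and 1.31% ± 0.173 with shPCBP1, and the groups overlapped (SD, n = 3, exact permutation p 0.8).

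STEAP3 (ENSG00000115107, chr2:119223831-119265652), the ferric reductase of erythroid endosomes, held 5134, 4513 and 5604 normalized counts with shCtrl and 6007, 5681 and 5605 with shPCBP1. The highest control all but met the lowest knockdown library, and the rise was small (log2 fold change 0.18, SE 0.0679, DESeq2 adjusted p 0.0285). It did not pass edgeR, at an adjusted p of 0.0903, nor when any library other than shCtrl replicate 3 was left out, with DESeq2 adjusted p from 0.0513 to 0.196. The transcript with the clearest difference was STEAP3-202, which ends short in the last exon. STEAP3-202 was at 2.64, 2.26 and 2.33 TPM with shCtrl and at 4.07, 5.36 and 5.09 TPM with shPCBP1 (DESeq2 log2 fold change 1.03, SE 0.153, adjusted p 1.77e-09, edgeR adjusted p 0.0712). STEAP3-201 and STEAP3-203, which run to the distal end, were at 8.59 and 5.59 TPM in shCtrl and 9.59 and 5.51 TPM in shPCBP1 on average, and neither passed. The share of STEAP3 ending within 500 bases of the distal end was accordingly 81%, 83.3% and 81.4% with shCtrl and 77.5%, 72.1% and 74% with shPCBP1. The groups did not overlap (exact permutation p 0.1).

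CDC42BPA (ENSG00000143776, chr1:226989865-227318492) encodes MRCKα, a cytoskeletal kinase whose mRNA has been described as carrying a 3′ IRE and whose protein takes part in transferrin uptake. It rose, from 18228, 18960 and 18539 normalized counts with shCtrl to 21593, 20539 and 21100 with shPCBP1. The groups did not overlap, and the log2 fold change was 0.18 (SE 0.0361, DESeq2 adjusted p 5.27e-06). CDC42BPA-205, the leading transcript with 45.3% of the TPM, was at 11.6, 11.5 and 11.2 TPM in shCtrl and 15.4, 13.4 and 15.3 TPM in shPCBP1 (DESeq2 adjusted p 1.18e-06, edgeR adjusted p 0.0991). CDC42BPA-204 was lower in every knockdown library, at 6.08, 7.66 and 5.75 TPM with shCtrl and 4.95, 4.55 and 5.43 TPM with shPCBP1 (DESeq2 adjusted p 0.0119, edgeR adjusted p 0.251). CDC42BPA-208, which has its own internal first exon, went from 3.01, 2 and 3.12 TPM to 5.4, 4.41 and 4.64 TPM (DESeq2 adjusted p 0.00238, edgeR adjusted p 0.228). Its first exon took 10.3% ± 2.64 of the gene in shCtrl and 15.4% ± 1.62 in shPCBP1 (limma adjusted p 0.367). Of CDC42BPA TPM in the canonical last exon, the share ending within 500 bases of the distal end was 87.4%, 91.9% and 87.1% with shCtrl. With shPCBP1 this share was 77.4%, 77.1% and 83.7%, with no overlap (exact permutation p 0.1). The TPM ending there was 21.6 in shCtrl and 22.8 in shPCBP1 on average. Short of it, in the same last exon, end CDC42BPA-208 and CDC42BPA-202. CDC42BPA-202 was at 0.0222, 0 and 0 TPM with shCtrl and 1.24, 2.07 and 0 TPM with shPCBP1 (DESeq2 adjusted p 0.244).

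**Figure D3:**
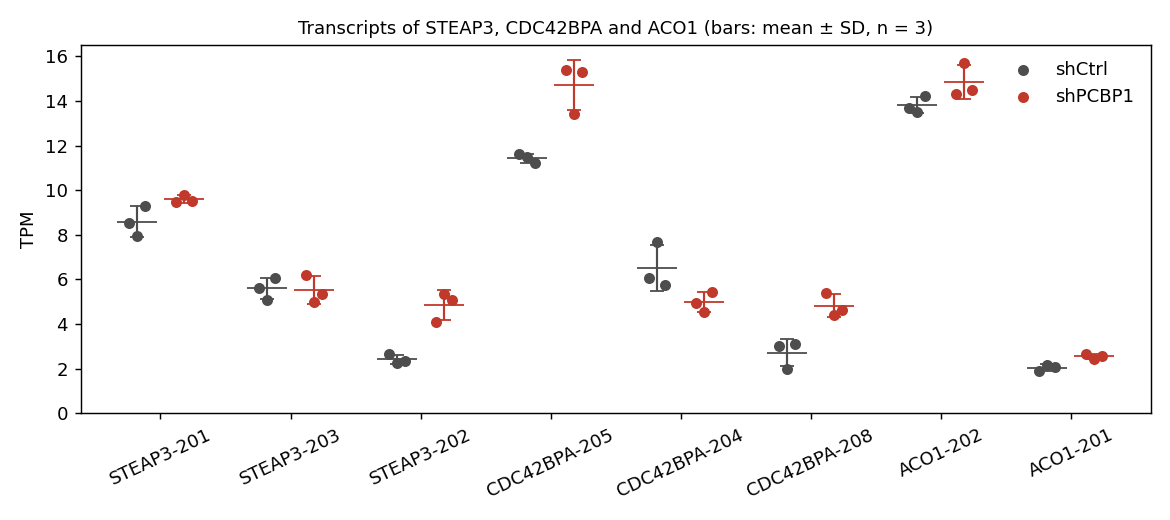
TPM of the leading transcripts of STEAP3, CDC42BPA and ACO1 in each library, with the mean and SD of 3 libraries per group. STEAP3-202 and CDC42BPA-205 are higher in all 3 shPCBP1 libraries than in any control, whereas STEAP3-203 overlaps between the groups.

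The sensors of the system differed little between the groups. ACO1 (ENSG00000122729, chr9:32384603-32454769) had 5418, 4989 and 5514 normalized counts with shCtrl and 5827, 6134 and 5626 with shPCBP1. Its rise was 1.1-fold (DESeq2 adjusted p 0.0332), and it did not pass edgeR (adjusted p 0.0953) or DESeq2 without replicate 1 or 2 of either group (adjusted p 0.0622 to 0.215). Its TPM was 16.5 ± 0.734 in shCtrl and 17.6 ± 1.04 in shPCBP1 (SD, n = 3). ACO1-201, the form with the long 3′ end, was at 1.87, 2.16 and 2.08 TPM with shCtrl and 2.66, 2.44 and 2.57 TPM with shPCBP1 (DESeq2 log2 fold change 0.34, adjusted p 0.00226, edgeR adjusted p 0.266). The short form ACO1-202 held 84% of the TPM and did not pass (DESeq2 adjusted p 0.334).

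IREB2 (ENSG00000136381, chr15:78437431-78501453) was at 9868, 9384 and 9454 normalized counts with shCtrl and at 10635, 10190 and 9913 with shPCBP1. The lowest knockdown library was only just above the highest control, and the log2 fold change of 0.10 (SE 0.0435) did not pass (DESeq2 adjusted p 0.069). It passed with transcript length offsets (adjusted p 0.033), without shCtrl replicate 1 (0.0479) and without shPCBP1 replicate 3 (0.0349). IREB2-201 carried 84.3% of its TPM and 96.2% of its estimated counts. IRP2 is controlled largely through the stability of its protein, which these data do not measure.

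FBXL5 (ENSG00000118564, chr4:15604381-15681679) was at 2379, 2422 and 2314 normalized counts with shCtrl and 2305, 2150 and 2155 with shPCBP1. The log2 fold change of -0.11 (SE 0.0663) did not pass (DESeq2 adjusted p 0.237), although it reached -0.18 and passed with transcript length offsets (adjusted p 0.0454). On the TPM scale it read 23.1, 24.5 and 24.1 with shCtrl and 20.8, 20.2 and 21.3 with shPCBP1. The largest part of that TPM came from FBXL5-212, a transcript of 592 bases with no annotated coding sequence, which held 55.3% of the TPM and 15.1% of the counts. FBXL5 overlaps the gene FAM200B on the opposite strand, which stood at 26.5 TPM, and whether the quantification used strand is not given in the sources used here.

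Of the transporters that move iron across endosomal and surface membranes, neither SLC11A2 nor SLC40A1 passed at the gene level. SLC11A2 (ENSG00000110911, chr12:50979401-51028566) held 5471, 5313 and 5298 normalized counts with shCtrl and 5815, 5707 and 5622 with shPCBP1 (log2 fold change 0.09, SE 0.0464, DESeq2 adjusted p 0.12). SLC40A1 (ENSG00000138449, chr2:189560590-189583758) held 5358, 5511 and 5770 with shCtrl and 5260, 5168 and 5136 with shPCBP1 (log2 fold change -0.10, SE 0.0494, DESeq2 adjusted p 0.128). Taking transcript lengths into account turned the SLC40A1 value to 0.01 (adjusted p 0.96), and its TPM was 34.9 ± 3.39 and 34.6 ± 0.593 (SD, n = 3).

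SLC11A2 makes mRNAs with alternative last exons, one of which carries the IRE shown above. The IRE-bearing last exon (chr12:50985992-50988435) was at 11.2, 11.9 and 10.9 TPM with shCtrl and 11.3, 11.5 and 11.4 TPM with shPCBP1, and the groups overlapped. The last exon without the IRE (chr12:50979784-50981803) was at 7.95, 6.88 and 7.78 TPM with shCtrl and 9.65, 9.32 and 8.75 TPM with shPCBP1, with no overlap and a ratio of means of 1.23. Its leading transcript, SLC11A2-229, was at 4.31 TPM in shCtrl and 4.46 TPM in shPCBP1 on average (DESeq2 adjusted p 0.897). SLC11A2-206, labelled for nonsense-mediated decay, was at 2.14 and 2.93 TPM. SLC11A2-208 was at 0.931 and 1.8 TPM, and SLC11A2-228 at 0.156 and 0.0574 TPM. None of these transcripts passed. As a share of SLC11A2 TPM, which averaged 27.7 with shCtrl and 30.6 with shPCBP1, the last exon without the IRE overlapped, at 27.2%, 23.3% and 32.1% against 30.4%, 30.6% and 29.5% (exact two-sided permutation p 0.4). An internal end that yields short transcripts (chr12:51005319-51005677) was at 13% ± 1.21 of the gene in shCtrl and 16.8% ± 1.08 in shPCBP1 (limma unadjusted p 0.0457, adjusted p 0.398). None of these shares passed the test across all last exons, where 0.252% did.

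Transcripts with the IRE took 38.3%, 40% and 45.1% of SLC11A2 TPM in shCtrl and 35%, 37.7% and 38% in shPCBP1. The difference was -4.26 percentage points and the groups did not overlap (exact two-sided permutation p 0.1). When the comparison was restricted to transcripts ending in either of the 2 distal last exons, a choice made after the data were seen, the IRE form took 58.5%, 63.3% and 58.4% with shCtrl and 54%, 55.2% and 56.5% with shPCBP1. With protein-coding transcripts alone the difference shrank to -0.952 points. SLC11A2-231, a transcript labelled for nonsense-mediated decay, had 0 TPM in each control library and 0.695, 0.288 and 0.632 TPM in shPCBP1. It made up 0.924% of SLC11A2 TPM. It passed in DESeq2 (adjusted p 1.03e-12) and edgeR (adjusted p 0.0427) but not in limma on log2 TPM (adjusted p 0.0703). The part of Salmon's division of reads among overlapping transcripts in these values was not tested.

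For SLC40A1 the IRE lies in the first exon, and starts further upstream give transcripts without it. The first exon with the IRE (chr2:189580418-189580786) took 72%, 62.5% and 63.8% of SLC40A1 TPM with shCtrl and 63.1%, 58.6% and 64.1% with shPCBP1. The next upstream exon (chr2:189581708-189582031) took 24.2%, 28.9% and 30.2% with shCtrl and 34.4%, 30.1% and 26.5% with shPCBP1. The groups overlapped for both exons, with limma adjusted p of 0.666 and 0.774. SLC40A1-206, a transcript of 592 bases that leads the upstream exon, held 24.6% of the TPM but 4.22% of the estimated counts. The canonical SLC40A1-201, which starts at the IRE exon, held 91.5% of the gene's estimated counts and was at 20.5 TPM in shCtrl and 19 TPM in shPCBP1 on average (DESeq2 adjusted p 0.118).

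**Figure D4:**
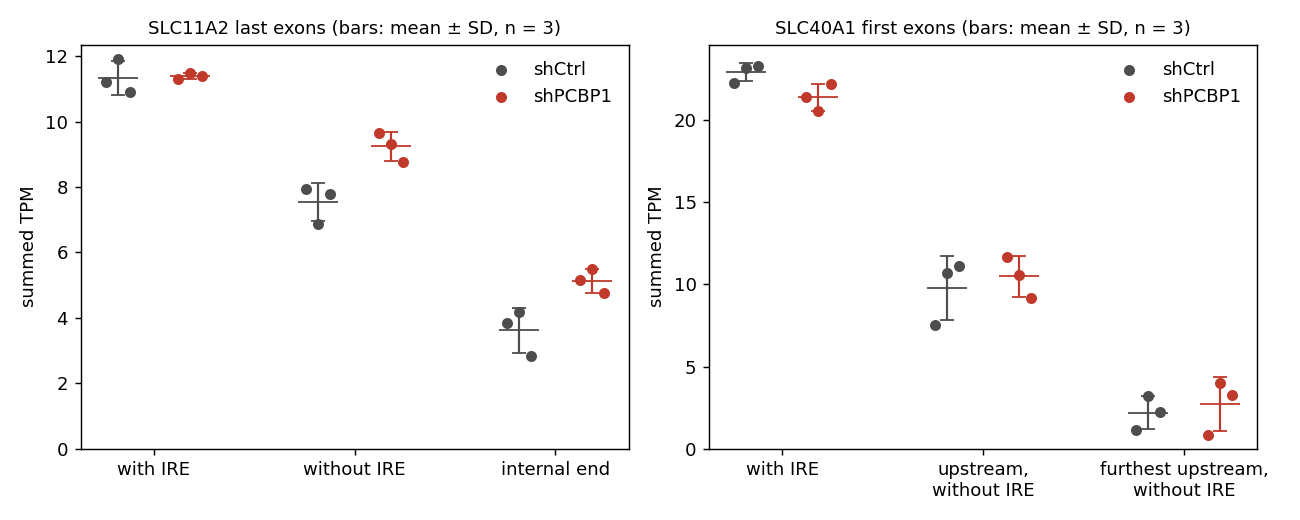
Summed TPM of the alternative last exons of SLC11A2 (left) and first exons of SLC40A1 (right), with and without an IRE, in each library, with the mean and SD of 3 libraries per group. The SLC11A2 exon with the IRE stays at 10.9 to 11.9 TPM in all 6 libraries, and the one without it is higher in all 3 shPCBP1 libraries.

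Over all members 121 of the 147 transcripts had an adjusted p from DESeq2, and 20 of these passed, 10 in each direction, against 9.27% of all transcripts tested. In edgeR, which tested the 129 member transcripts with a summed count of at least 10, 4 passed, against 0.544% of all tested: TFR2-201, TFR2-205, TFRC-229 and SLC11A2-231. In limma 0 of 18 alternative last exons, in 8 of the genes, passed, with 4 at an unadjusted p under 0.05. Likewise 0 of 20 alternative first exons passed, with 4 at an unadjusted p under 0.05, against 0.245% of all first exons tested.

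The wider iron pathway was read from 42 genes in 6 lists, of which 36 had an adjusted p. Of these, 5 rose, 2 fell and 29 did not pass, and the median log2 fold change was 0.02. Of all genes tested 17.7% rose and 13.5% fell, so both counts lay below the background share. None of the 42 passed the added requirement of a change over 1 log2 unit.

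Among the other mRNAs known for IREs, 2 of 6 rose, against 17.7% of all genes tested. EPAS1, the hypoxia-inducible factor HIF-2α with an IRE in its 5′ UTR, was at 2099, 1894 and 2192 normalized counts with shCtrl and 2958, 3140 and 2797 with shPCBP1 (log2 fold change 0.52, SE 0.074, DESeq2 adjusted p 5.42e-11). Its TPM overlapped between the groups, at 8.97 ± 1.23 and 9.29 ± 0.956 (SD, n = 3). CDC14A, a phosphatase with an IRE in the 3′ UTR of some isoforms, was at 4949, 4646 and 4639 with shCtrl and 6119, 5669 and 5381 with shPCBP1 (log2 fold change 0.27, SE 0.0574, DESeq2 adjusted p 2.4e-05). The ferritin subunits FTH1 and FTL, which store iron, had log2 fold changes of 0.02 and -0.08 (DESeq2 adjusted p 0.789 and 0.0578). FTL passed as lower in edgeR (adjusted p 0.0476) and in DESeq2 without shCtrl replicate 2 (adjusted p 0.00065). Its normalized counts did not overlap between the groups. ALAS2, the first enzyme of heme synthesis in erythroid cells, stood at -0.15 (DESeq2 adjusted p 0.444). This value rested on single control libraries: it was -0.01 without shCtrl replicate 3 (adjusted p 0.915) and -0.23 without shCtrl replicate 2, where it passed (DESeq2 adjusted p 0.0353).

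The transferrin cycle list held 12 genes, and none passed, at unadjusted DESeq2 p of 0.0168 (EXOC6), 0.0241 (MCOLN1) and 0.0359 (SLC11A1) for the 3 nearest the threshold, and edgeR also passed 0 of the 12. TF itself, transferrin, was at -0.14 (adjusted p 0.334). Of 5 tested genes for other routes of entry and exit, HEPH, a ferroxidase that works with ferroportin, fell (log2 fold change -0.13, SE 0.0422, DESeq2 adjusted p 0.0124). SLC25A28, mitoferrin 2, rose (0.19, SE 0.0776, DESeq2 adjusted p 0.0484). ERFE, the erythroid hormone that lowers hepcidin, was at 297, 323 and 286 normalized counts in shCtrl and 182, 240 and 226 in shPCBP1, and fell (log2 fold change -0.49, SE 0.186, DESeq2 adjusted p 0.0316). The calls for ERFE and SLC25A28 were lost in edgeR (adjusted p 0.0606 and 0.0913). ERFE also lost its call without any shCtrl library or shPCBP1 replicate 1 (DESeq2 adjusted p 0.0555 to 0.148), and SLC25A28 without any library but shCtrl replicate 3 (0.0678 to 0.17). HEPH lost it without shCtrl replicate 1 (0.111) or shPCBP1 replicate 2 (0.121). The TPM of all 3 genes overlapped between the groups, at 2.37 ± 0.097 and 2.03 ± 1.02 for ERFE, 11.5 ± 0.54 and 12.9 ± 0.979 for SLC25A28, and 44.1 ± 2.52 and 40.7 ± 2.7 for HEPH (SD, n = 3, shCtrl first).

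Of 8 genes for the FBXL5 ligase and for cytosolic iron-sulfur delivery, HERC2, a ubiquitin ligase that targets FBXL5, rose (log2 fold change 0.15, SE 0.0411, DESeq2 adjusted p 0.00121). Its TPM overlapped between the groups, at 35.1 ± 1.85 with shCtrl and 33.4 ± 3.6 with shPCBP1 (SD, n = 3). Among the 3 decay factors that act on TFRC mRNA, RC3H2 (Roquin-2) rose, from 5655, 6006 and 5939 normalized counts to 6745, 6751 and 6632 (log2 fold change 0.19, SE 0.0461, DESeq2 adjusted p 0.000201), while its TPM overlapped, at 12.1 ± 0.6 and 13.6 ± 1.59 (SD, n = 3). ZC3H12A (Regnase-1) and RC3H1 (Roquin-1) did not pass, at adjusted p 0.279 and 0.149.

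**Figure D5:**
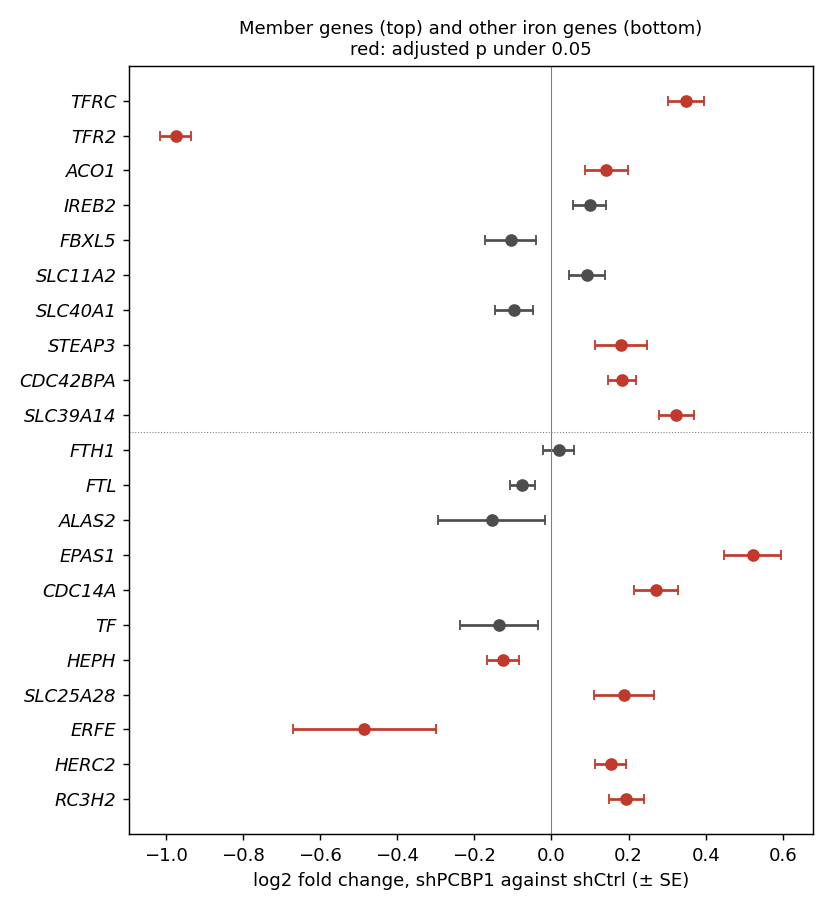
Log2 fold change of shPCBP1 against shCtrl with its standard error (x axis) for the 10 genes (top) and the other iron genes named in the text (bottom), red where the adjusted p is under 0.05. TFR2 at -0.97 lies furthest from 0, and EPAS1 at 0.52 is the highest.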

How the data were processed

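Poly-A selected libraries (paired end) from 3 shCtrl and 3 shPCBP1 samples of K562 cells were used, grouped by the GEO labels. For each sample the authors deposited a Salmon (1.10.2) table with an estimated count and a TPM (a length-corrected share of all transcripts) per transcript, plus effective lengths, used here as length offsets. Depth was 67066747 to 140522444 estimated counts per library, and members averaged 2288 to 61670 normalized counts. Transcript IDs were matched to GENCODE v44 (251612 of 252045, leaving 0.136% to 0.147% of counts), and the estimated counts of a gene's transcripts were added up and taken to whole numbers. A gene entered the test when its total reached 10, using DESeq2 1.42.0 (median-of-ratios scaling, Wald test, Benjamini-Hochberg adjustment over all genes), as in the study, whose own DESeq2 results were not used here. Transcripts were tested in the same way. On simulated counts the transcript test made far more false calls than its threshold allows, and edgeR 4.0.16 adjusted p-values are therefore printed beside it. Shares of alternative first and last exons (5% to 95% of a gene of at least 1 TPM, log2 ratio with a pseudocount of 0.1) were tested with limma 3.58.1, and other shares with exact two-sided permutation tests, which cannot go below 0.1 with 3 against 3. The genes and lists were chosen with earlier results of these data known. Named were all 10 members, their IRE matches, and pathway genes past adjusted p 0.05 plus FTH1, FTL, ALAS2, EPAS1 and TF. Transcripts with at least 0.5 TPM and 5% of their gene, and tested exons, also qualified, but not all are described. Left out were CDC42BPA-203, FBXL5-201, FBXL5-202, FBXL5-205, FBXL5-211, SLC11A2-201, SLC11A2-217, SLC11A2-223, SLC40A1-203, TFR2-206 and TFR2-209, none of which passed DESeq2. Several tested first and last exons were left out too. The transcripts described therefore lean towards those that changed. Transcripts and exons outside these rules (TFRC-202, TFRC-214, TFRC-229, SLC11A2-208, SLC11A2-228, SLC11A2-231, SLC39A14-203, CDC42BPA-202) were named after their values were seen. So were EPOR and other marker genes, the genes nearest the threshold in the transferrin cycle list, and the Roquin and Regnase genes that did not pass. A listed marker is not reported here. R 4.3.3 and Python 3.11.15 were used.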

Additional observations from a re-analysis of the deposited data

How the results depend on the processing

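TFRC, TFR2, CDC42BPA and SLC39A14 kept their direction and passed under every alternative run. ACO1 and STEAP3 did not: in edgeR 3 genes of the 10 were higher in place of 5, and leaving out 1 library gave 3 to 5 higher and 1 lower, with 3 higher without shCtrl replicate 2, shPCBP1 replicate 1 or shPCBP1 replicate 2. ACO1 also lost its DESeq2 call with TMM factors (adjusted p 0.0554), length offsets (0.247), no independent filtering (0.0545) and protein-coding genes only (0.058). Counts of higher genes included IREB2 with length offsets, without shCtrl replicate 1 and without shPCBP1 replicate 3, so equal counts can hold different genes. With transcript length offsets, or with protein-coding genes only, 2 genes were lower in place of 1, FBXL5 (adjusted p 0.0454) and SLC40A1 (0.0403) respectively being the addition. SLC40A1 turned to 0.008 with length offsets, and FTH1 ranged from -0.026 to 0.0473 with 1 library left out, below 0 without shCtrl replicate 2 and shPCBP1 replicate 1. The causes were not tested.

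Of the other iron genes 5 were higher and 2 lower. TMM factors gave 4 lower, FTL (adjusted p 0.0137) among them. Leaving out 1 library gave 4 to 9 higher (9 without shCtrl replicate 3) and 1 to 3 lower. Unlike the members, these genes were not run with transcript length offsets, other filters or protein-coding genes only. Of member transcripts, 10 in each direction by DESeq2, edgeR and limma on log2 TPM each passed 1 higher and 3 lower, as did the requirement of passing both DESeq2 and edgeR, added after seeing the data. The higher transcript differed: SLC11A2-231 in edgeR (limma adjusted p 0.0703) and TFRC-202 in limma (adjusted p 0.0308, edgeR 0.378). Protein-coding transcripts only gave 4 lower, and leaving out 1 library gave 9 to 17 higher (17 without shCtrl replicate 3) and 6 to 11 lower (6 without shPCBP1 replicate 1). First and last exons stayed at 0 under every alternative. The SLC11A2 difference in IRE share was -0.952 points with protein-coding transcripts only (exact permutation p 0.8) and -5.69 to -2.27 points with 1 library left out. No value could be given without the extra base in the IRE, since the SLC11A2 match has one.

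Replicate numbers are shared between the groups, and the labels do not say whether same-numbered samples were paired. Deviations of same-numbered libraries correlated at 0.094, -0.0203 and -0.105 over 14181 genes, which does not settle it. With a replicate block 4 of the 10 genes were higher and 1 lower, ACO1 being lost (adjusted p 0.0866), and of the other iron genes 4 were higher and 1 lower. Of 239 values for the 21 named genes under alternatives, 195 kept direction and side of the threshold, 32 lost the call, 9 gained one and 3 changed sign. With 3 libraries a group, shares tested by permutation could not pass 0.05.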
